A study of Homo sapiens and Mus musculus with 12 samples.

Results

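The JUN and FOS genes encode the subunits of AP-1. They were followed here in NK cells in which the histone methyltransferase EHMT2 was deleted or inhibited. The set holds the rows of the symbols Jun, Junb, Jund, Fos and Fosb in the mouse count table and of JUN, JUNB, JUND, FOS and FOSB in the human count table, which is 10 of 40325 rows (5 of 22021 in mouse and 5 of 18304 in human). The members were chosen by their measured expression differences in the 2 comparisons described below. These differences are therefore given as a description, with standard errors. Where a call of a member at an adjusted p is given, it is no support, as the same values chose the member. All 10 members passed the filter on low counts.

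AP-1 is a pair of basic leucine zipper (bZIP) proteins that binds DNA as a dimer. JUN proteins pair with each other or with FOS proteins, whereas FOS proteins need a JUN partner. Most of these genes are immediate early genes, transcribed without new protein synthesis when a surface receptor or stress activates MAP kinases, and their transcripts are short-lived. In NK and T cells, AP-1 acts with NFAT at cytokine genes such as IFNG. JUND is made more steadily than the other members, and JUNB is strongly induced by cytokines and antigen receptors.

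Mouse NK cells were sorted from the spleens of C57BL/6J mice aged 8 to 12 weeks. WT mice were Ehmt2 flox/flox, and KO mice were Ehmt2 flox/flox with Ncr1 iCre, so that Cre acts in cells that express the NK receptor gene Ncr1. The genotype label of the KO samples reads Ezh2-KO, while their titles and the study's methods name EHMT2, and the titles were followed. Human NK92MI cells, an established NK line engineered to produce IL-2, received BIX-01294, an inhibitor of EHMT2 activity, or DMSO. A dose of 0.25 μM for 5 days is given for NK92MI experiments, but not for these libraries in particular. Each group had 3 libraries, and as nothing states that the cultures were separate, p-values measure the spread between these samples. The DMSO columns carry no link to numbered samples, and their numbers here only name columns.

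Total counts were 25891680 to 37438868 per mouse library, the lowest in WT replicate 2, and 16579469 to 17165446 per human library. Levels are CPM, the count scaled to library size by TMM normalization. Ehmt2 was counted at 171, 143 and 137 CPM in KO and at 275, 284 and 285 CPM in WT NK cells. EHMT2 was counted at 40.4, 39.3 and 35.8 CPM with BIX-01294 and at 57.1, 61.6 and 54.3 CPM with DMSO. The 12 NK marker genes summed to 6820 to 10555 CPM in WT and 12014 to 13969 CPM in KO NK cells. They include Prf1, Gzmb, Tbx21 and Il2rb, which the paper reports as higher in KO NK cells by RT-qPCR. Their sum is thus no measure of the share of NK cells alone. The 47 marker genes of other blood cells summed to 6317 to 10807 CPM in WT and 4114 to 5570 CPM in KO NK cells, so that NK markers and the markers of other cells differed with the genotype in opposite directions. In NK92MI cells the 12 NK markers summed to 5278 to 5695 CPM with DMSO and 6929 to 8781 CPM with BIX-01294. These NK markers did not all move the same way. Of the 11 tested, 6 rose and 4 fell with BIX-01294 (edgeR's quasi-likelihood test, adjusted p below 0.05). The 8 listed markers of other blood cells summed to 16.7 to 17.6 CPM with DMSO and 28.8 to 31.8 CPM with BIX-01294. Most of the sum of these 8 came from the 4 B cell markers, at 13.4 to 14.4 CPM and 24.2 to 26.3 CPM.

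The start regions of the human genes differ in the short elements through which signals reach them. The 200 bases before the start of JUN, JUNB, JUND and FOS are shown because JUN, JUNB and FOS had the widest differences with BIX-01294 and JUND the highest level per kilobase of exon. They are RefSeq sequences on GRCh38.p14, written 5′ to 3′ on the strand of the gene. Capitals mark TGACGTCA, the cyclic AMP response element (CRE), its first 5 letters TGACG, and TGACATCA, a variant of the CRE in the JUN promoter to which JUN and ATF2 are known to bind. TGACG on the opposite strand reads CGTCA, as in the second stretch of capitals in JUND.
JUN (chr1:58784048-58784247, minus strand): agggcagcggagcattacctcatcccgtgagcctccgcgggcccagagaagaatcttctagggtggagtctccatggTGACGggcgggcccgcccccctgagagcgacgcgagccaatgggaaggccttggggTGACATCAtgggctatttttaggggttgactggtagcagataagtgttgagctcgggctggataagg
JUNB (chr19:12791286-12791485, plus strand): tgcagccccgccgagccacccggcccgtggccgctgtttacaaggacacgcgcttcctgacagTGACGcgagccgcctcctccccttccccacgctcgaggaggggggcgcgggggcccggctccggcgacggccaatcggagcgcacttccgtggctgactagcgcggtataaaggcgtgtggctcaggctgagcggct
JUND (chr19:18281623-18281822, minus strand): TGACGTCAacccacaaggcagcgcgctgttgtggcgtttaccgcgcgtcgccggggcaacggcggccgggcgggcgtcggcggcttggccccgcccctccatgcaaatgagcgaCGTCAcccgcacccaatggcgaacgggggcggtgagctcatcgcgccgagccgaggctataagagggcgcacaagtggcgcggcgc
FOS (chr14:75278628-75278827, plus strand): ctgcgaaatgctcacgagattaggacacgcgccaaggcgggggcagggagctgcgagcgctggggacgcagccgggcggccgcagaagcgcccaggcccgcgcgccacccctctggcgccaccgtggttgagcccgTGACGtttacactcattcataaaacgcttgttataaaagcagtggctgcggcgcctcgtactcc

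All 5 human members were found in the promoter table, and motifs were searched on both strands of the 250 bases before each start. In JUN, TGACATCA lies 67 to 60 bases before the start, a motif held by 2.37% of the 35116 promoters of the table. In JUND, the CRE lies 200 to 193 bases before the start, and 1.65% of the promoters hold one. TGACG, which is part of the CRE, occurs in all 5 members, 64 to 60 bases before the start in FOS and 60 to 56 bases before it in FOSB, against 21.2% of all promoters. The AP-1 site TGANTCA, held by 6.57% of promoters, and the CArG box bound by SRF, held by 1.16%, were not found in this window in any of the 5. Bases further upstream were not searched, so the genes may hold either site there. The CCAAT box CCAAT occurs once in each of JUN, JUNB and JUND and not in the window of FOS or FOSB, against 32% of promoters. These matches describe letters only.

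With TMM normalization, Jund was higher in KO than in WT NK cells (its sign turned when libraries were scaled to NK genes), Jun and Junb were near their WT level, and Fos had a lower mean with overlapping groups. Since bulk RNA was measured, fewer cells of a type and less RNA per cell cannot be told apart. Of the 5 members, 1 was higher and 0 were lower at an adjusted p under 0.05 by edgeR's quasi-likelihood test, against 4.44% of all 13189 genes tested that were higher and 7.43% that were lower. No member met the stricter rule, which asks for an adjusted p under 0.01 together with |log2 fold change| above 0.5, against 0% of all genes. This count of 0 genes goes with 2080 genes higher and 2639 lower at an unadjusted p under 0.05 by edgeR, and with 1499 genes called by DESeq2. Nothing is read from the members' counts, as the same comparison chose them.

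Jund encodes a JUN protein that is expressed in resting cells and restrains growth in many cell types. The gene lies at chr8:70698949-70700616 (GRCm38, plus strand). Its level was 638, 700 and 590 CPM in KO and 416, 517 and 469 CPM in WT NK cells. Every KO library was above every WT library, as was so for 19.1% of genes tested (19.3% had every KO library below). The log2 fold change was 0.46 (standard error 0.11), and leaving out each library in turn gave 0.38 to 0.54. The call of Jund at an adjusted p under 0.05 by edgeR held without WT replicate 2 and was lost without any other single library and with the NK gene scaling described next. With the libraries scaled to 12 NK genes in place of TMM, the value changed sign to −0.29 while the median of all genes moved from 0.01 to −0.76. These were Ncr1, Klrk1, Klrd1, Nkg7, Prf1, Klrb1c, Itga2, Il2rb, Klre1, Klra8, Gzma and Tyrobp. Of them, the paper reports Prf1 and Il2rb as higher in KO NK cells by RT-qPCR. Scaling to genes that are higher in KO lowers the values of other genes, so a changed sign follows from this choice. Which scaling holds was not tested. Relative to the median gene, Jund was at 0.45 with TMM and at 0.47 with the NK gene scaling. A change of scaling moves all genes by nearly the same amount, so these values had to be close and are no separate support.

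Junb, whose product is induced by cytokines and often opposes JUN at shared targets, lies at chr8:84974484-84978718 (minus strand). Its level was 587, 532 and 442 CPM in KO and 426, 477 and 595 CPM in WT NK cells. The highest library was WT replicate 3, next to KO replicate 1, so the groups overlapped across their whole range. Their log2 fold change was 0.06 (standard error 0.15), and −0.72 with the NK gene scaling.

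Jun, the founding member of the family and a target of the JNK kinases, lies at chr4:95049034-95052222 (minus strand). The WT libraries were close together at 83.7, 83.1 and 82.0 CPM. The KO libraries spread from 58.9 CPM in replicate 3 to 85.1 CPM in replicate 2 and 113 CPM in replicate 1, on both sides of WT. The log2 fold change was 0.04 (standard error 0.20). It ran from −0.21 without KO replicate 1 to 0.25 without KO replicate 3, and was −0.72 with the NK gene scaling, so the libraries give no direction for Jun.

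Fos encodes the partner that forms the most stable dimers with JUN. The gene lies at chr12:85473890-85477273 (plus strand). It had 64.8, 37.4 and 29.0 CPM in KO and 78.6, 49.1 and 76.9 CPM in WT NK cells. KO replicate 1 lay above WT replicate 2, and the other KO libraries lay below all WT libraries. The log2 fold change was −0.64 (standard error 0.30), with −1.04 without KO replicate 1, −0.42 without KO replicate 3, and −1.45 with the NK gene scaling.

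Fosb lies at chr7:19302696-19310051 (minus strand) and encodes a FOS protein that, through splicing, also exists in a shorter and more stable form. Its level was 35.5, 22.1 and 15.4 CPM in KO and 23.8, 24.0 and 7.63 CPM in WT NK cells. WT replicate 3 was the lowest of all libraries and KO replicate 1 the highest. KO against WT gave 0.40 on the log2 scale (standard error 0.45), falling to 0.02 without KO replicate 1 and changing sign to −0.31 with the NK gene scaling.

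**Figure D1:**
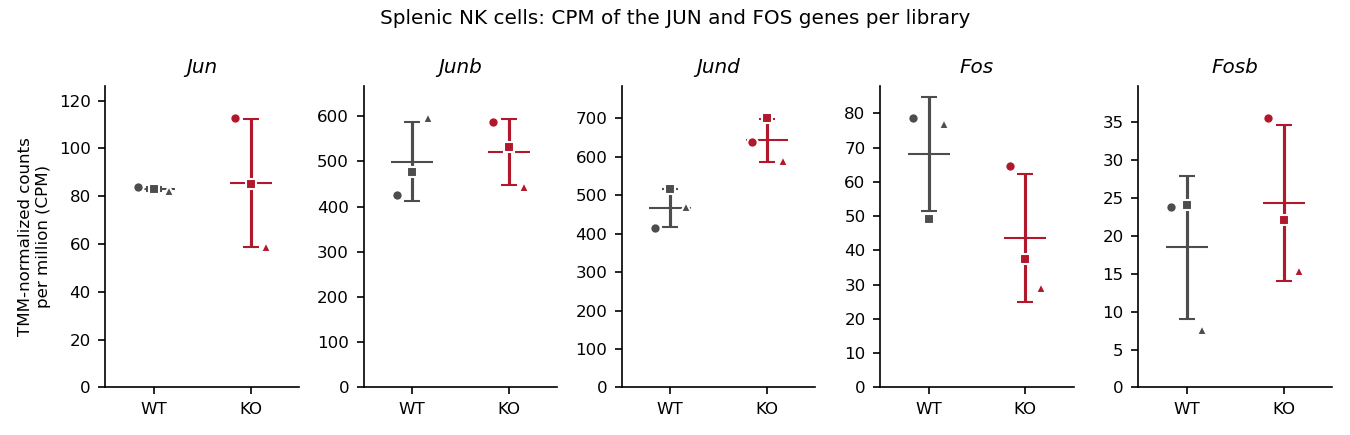
CPM (TMM-normalized, linear axes from 0, a separate scale per gene) of the 5 mouse genes in the WT and KO libraries of splenic NK cells; points are libraries (circle, square and triangle for replicates 1, 2 and 3) and bars show the mean ± SD. The KO libraries of Jund, at 590 to 700 CPM, lie above all WT libraries with TMM, an order whose log2 fold change turns to −0.29 with the NK gene scaling, and the other genes overlap.

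KO replicate 1 had the highest level among the KO libraries for Jun, Junb, Fos and Fosb, but not for Jund. The same library had the largest summed level of all 47 markers of other blood cells among the KO libraries, at 5570 CPM against 4114 and 4489 CPM, although its sum of the 6 dendritic cell markers was the lowest, at 1054 CPM against 1344 and 1240 CPM. B cell markers summed to 483 CPM in it against 106 and 88.1 CPM in KO replicates 2 and 3, and macrophage and monocyte markers to 2556 CPM against 1404 and 1958 CPM. In WT NK cells the sums were 833, 520 and 1505 CPM for the 8 B cell markers and 6849, 2630 and 5067 CPM for the 10 macrophage and monocyte markers. WT replicate 2, with the lowest B cell and macrophage and monocyte sums of WT, was also the WT library with the lowest Fos. Its dendritic cell sum was the highest of WT, at 1331 CPM against 1135 and 999 CPM. Its erythroid and platelet sum, at 1612 CPM, was above the 1523 CPM of WT replicate 1. Over all lists of other blood cells, 43 of the 46 genes tested had a lower mean in KO NK cells, and their median log2 fold change was −1.80. At an adjusted p under 0.05 by edgeR, 15 were lower and 1 higher, against 7.43% and 4.44% of all genes tested. The part of these cells in the levels of the members was not tested.

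The spread between replicates, which the choice of members did not use, was wide for the FOS genes. The pooled SD of log2 CPM within groups ranked at the 95.6th percentile of all genes tested for Fosb and at the 87.7th for Fos. It was at the 77.4th for Jun, the 64.6th for Junb and the 40.0th for Jund. In NK92MI cells the FOS genes also ranked highest, with FOSB at the 84.6th and FOS at the 83.7th percentile, JUNB at the 74.1st, JUND at the 73.0th and JUN at the 34.6th. FOS and FOSB have few counts in NK92MI cells, and counting error is part of their spread.

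In NK92MI cells treated with BIX-01294, JUN was 3.38-fold and JUNB 2.56-fold the DMSO level, JUND was higher to a smaller extent, and FOS was lower at a very low level. Of the 5 members, 3 were higher and 1 was lower at an adjusted p under 0.05 by edgeR, against 18.4% of all 12727 genes tested that were higher and 18.4% that were lower. Under the stricter rule 2 members were called (JUN and JUNB), against 11.7% of all genes. The libraries of the groups did not overlap for 3 members that were higher and 1 that was lower, against 24.1% and 23.9% of all genes. Here too nothing is read from the members' counts, since the comparison chose them.

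JUN lies at chr1:58776845-58784048 (GRCh38, minus strand). It was counted at 253, 226 and 259 CPM with BIX-01294 and at 71.2, 78.2 and 69.1 CPM with DMSO. The lowest treated library was far above the highest control. The log2 fold change was 1.76 (standard error 0.07), between 1.72 and 1.82 with each library left out in turn.

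JUNB lies at chr19:12791486-12793315 (plus strand). Its level was 96.1, 71.7 and 108 CPM with BIX-01294 and 35.4, 38.1 and 34.3 CPM with DMSO, again without overlap. For JUNB the log2 fold change was 1.35 (standard error 0.12), between 1.23 without BIX replicate 3 and 1.51 without BIX replicate 2.

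JUND, at chr19:18279694-18281622 (minus strand), was counted at 189, 164 and 242 CPM with BIX-01294 and at 139, 158 and 145 CPM with DMSO. The groups did not overlap, but BIX replicate 2 lay just above the highest control and BIX replicate 3 well above the rest. For JUND the log2 fold change was 0.43 (standard error 0.11), and 0.26 without BIX replicate 3.

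BIX replicate 2 was the lowest and BIX replicate 3 the highest of the treated libraries for all 3 JUN genes. The sum of the 12 NK markers had the same order, at 8003, 6929 and 8781 CPM in BIX replicates 1, 2 and 3. The part of this difference between libraries in the levels of the members was not tested.

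FOS lies at chr14:75278826-75282230 (plus strand) and was counted at 2.92, 2.53 and 3.96 CPM with BIX-01294 and at 5.99, 5.44 and 4.02 CPM with DMSO. These levels rest on 48, 43 and 67 counts in the treated and on 103, 93 and 68 counts in the control libraries. The groups touched, with the highest treated library just under the lowest control. The log2 fold change was −0.72 (standard error 0.22), between −0.91 and −0.58 with each library left out in turn. The call of FOS at an adjusted p under 0.05 by edgeR was lost without BIX replicate 1, BIX replicate 2, DMSO replicate 1 or DMSO replicate 2.

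FOSB, at chr19:45467995-45475179 (plus strand), was counted at 4.51, 3.06 and 2.83 CPM with BIX-01294 and at 4.83, 3.27 and 3.67 CPM with DMSO. The groups overlapped, and the log2 fold change was −0.18 (standard error 0.23). Without DMSO replicate 1 it was −0.01.

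**Figure D2:**
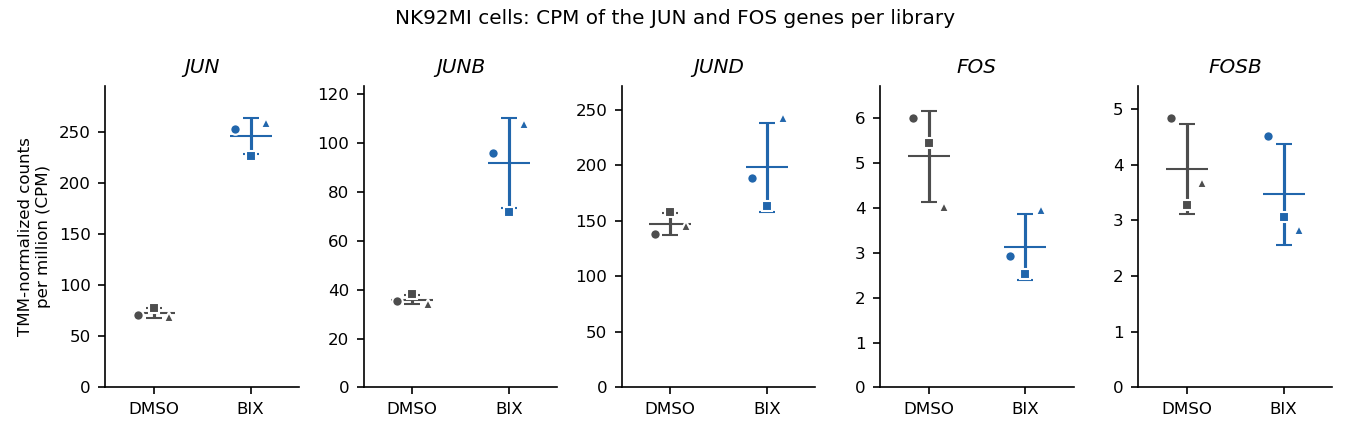
CPM (TMM-normalized, linear axes from 0, a separate scale per gene) of the 5 human genes in the DMSO and BIX-01294 (BIX) libraries of NK92MI cells; points are libraries (circle, square and triangle for numbers 1, 2 and 3) and bars show the mean ± SD. JUN and JUNB separate widely, JUND and FOS narrowly, and FOSB overlaps.

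Because the genes differ in length, their levels were compared per kilobase of exon. On this scale (CPM per kb) the order in WT NK cells was Jund at 280, Junb at 217, Fos at 29.0, Jun at 26.0 and Fosb at 2.96. In KO NK cells it was Jund at 385, Junb at 226, Jun at 26.8, Fos at 18.6 and Fosb at 3.90. Fos and Jun, neighbours in this order, exchanged places between the groups, and their libraries overlapped in both. Jund and Junb overlapped in WT NK cells, where Junb reached 259 in WT replicate 3 and Jund was 249 in WT replicate 1, and did not overlap in KO NK cells. In NK92MI cells with DMSO the order was JUND at 76.3, JUN at 20.1, JUNB at 19.6, FOS at 1.62 and FOSB at 0.707. JUN and JUNB overlapped there, at 19.1 to 21.6 and 18.7 to 20.8. With BIX-01294 the order was the same, with JUND at 103, JUN at 67.9, JUNB at 50.2, FOS at 0.984 and FOSB at 0.624. JUN and JUNB no longer overlapped, whereas FOS and FOSB now did.

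Of the summed length-scaled level of the 5 genes, JUN held 17.3%, 17.0% and 16.6% in the DMSO libraries and 31.5%, 33.3% and 27.7% in the BIX-01294 libraries. The mean share of JUNB was 16.6% with DMSO and 22.5% with BIX-01294, and that of JUND 64.5% and 46.0%, so that JUND made up less of the pool and JUN and JUNB more. In splenic NK cells the make-up differed less between the groups. The share of Jund was 50.1%, 54.5% and 46.9% in WT and 54.2%, 60.2% and 61.1% in KO NK cells, overlapping between WT replicate 2 and KO replicate 1.

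Jun, Junb and Jund together outweighed Fos and Fosb in every mouse library, as did JUN, JUNB and JUND over FOS and FOSB in every human library. The ratio of JUN to FOS subunit transcripts per kilobase was 12.4, 22.0 and 16.7 in WT and 20.2, 34.8 and 38.1 in KO NK cells, where KO replicate 1 lay below WT replicate 2. It was 40.3, 54.1 and 58.7 with DMSO and 127, 139 and 146 with BIX-01294. The ratio is one within each library and does not depend on the scaling between libraries. On the FOS side it counts FOS and FOSB only (Fos and Fosb in mouse). The FOS-related genes FOSL2 and Fosl2 are left out, although FOSL2 had a higher length-scaled level than FOS and FOSB with BIX-01294. It is thus no ratio over all FOS-family transcripts. It says nothing of the proteins or dimers.

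**Figure D3:**
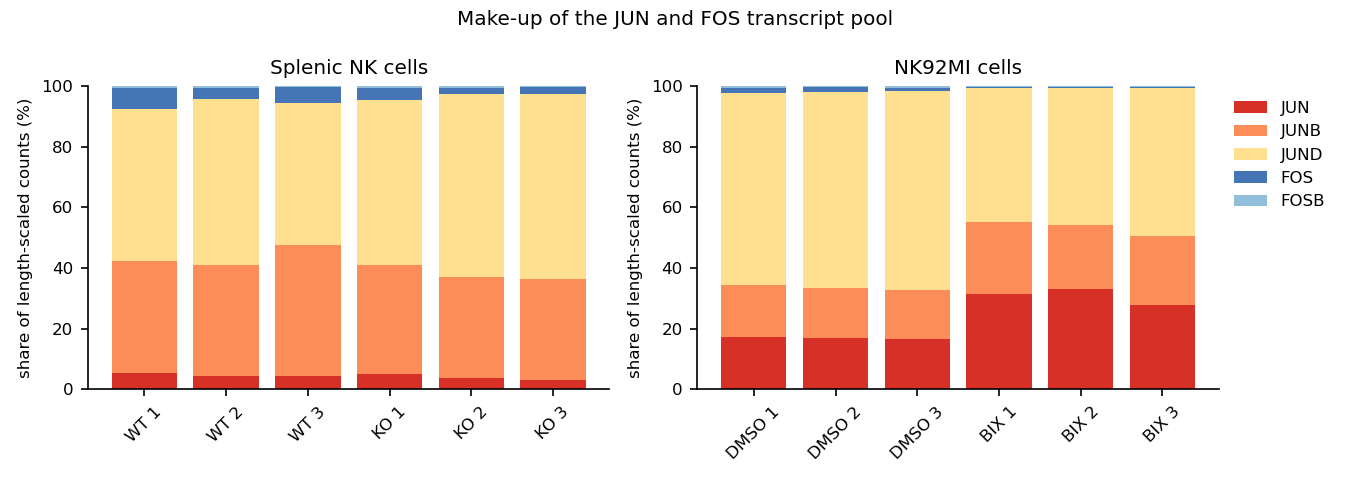
Share (%) of each gene in the summed counts per kilobase of exon of JUN, JUNB, JUND, FOS and FOSB, stacked per library, for splenic NK cells of WT and KO mice and NK92MI cells with DMSO or BIX-01294 (BIX). JUND makes up the largest part in every library, and JUN makes up 16.6% to 17.3% of the pool with DMSO and 27.7% to 33.3% with BIX-01294.

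The other bZIP genes that can pair with JUN or FOS were taken as a list of 13 genes. In splenic NK cells 12 were tested, and 0 passed an adjusted p under 0.05 by edgeR, against 4.44% of all genes higher and 7.43% lower. At an unadjusted p under 0.05 there were 3 higher and 2 lower by edgeR, and with DESeq2 1 gene was higher and 3 were lower at its adjusted p under 0.05. The median log2 fold change was −0.04 against 0.01 over all genes. Fosl2, a FOS-related gene, was at 53.1, 59.5 and 63.4 CPM in KO and 34.6, 47.0 and 48.3 CPM in WT NK cells, without overlap, with a log2 fold change of 0.44 (adjusted p = 0.0740 by edgeR). Atf3, a stress-induced partner of JUN, had −0.92, and Batf2 −1.03. Log2 fold changes of the others that did not pass were −0.36 for Maf, −0.25 for Mafg, −0.21 for Maff, −0.20 for Batf3, 0.12 for Atf7, 0.14 for Batf, 0.19 for Atf2, 0.20 for Mafk and 0.39 for Jdp2.

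In NK92MI cells 11 of the 13 genes were listed and 10 tested, and 5 rose and 0 fell at an adjusted p under 0.05 by edgeR, with a median log2 fold change of 0.28 against −0.01 over all genes. The share over all genes tested was 18.4% in each direction. FOSL2 rose from 164, 171 and 162 CPM to 288, 321 and 275 CPM, 0.83 ± 0.07 (standard error) on the log2 scale (adjusted p = 1.15e-06 by edgeR). At 41.2 CPM per kb with BIX-01294, it exceeded FOS and FOSB in length-scaled level. ATF3 rose from 8.67, 8.48 and 9.11 CPM to 23.0, 18.7 and 25.0 CPM, a log2 fold change of 1.34 (adjusted p = 3.39e-06 by edgeR). MAF rose by 1.48, MAFF by 0.84 and MAFG by 0.22 on the log2 scale. BATF, which pairs with JUN proteins in lymphocytes, had a log2 fold change of 0.34 (adjusted p = 0.0549 by edgeR) and BATF3 −0.22. ATF2 had 0.09, ATF7 0.05 and MAFK −0.08, none of which passed. FOSL1 was near 0 in both cell types and was not tested.

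**Figure D4:**
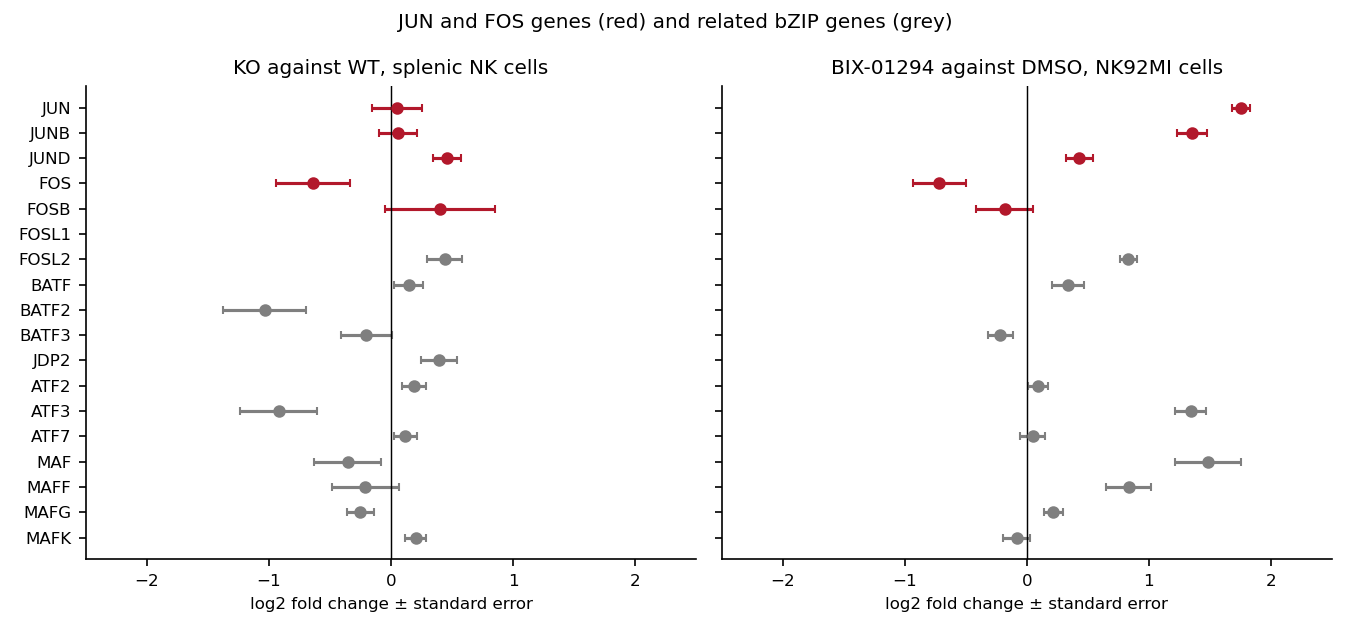
Log2 fold change (x axis, with bars for the standard error, 3 libraries per group) of the JUN and FOS genes in red and the related bZIP genes in grey, for KO against WT splenic NK cells and for BIX-01294 against DMSO in NK92MI cells; mouse genes stand under the human symbols. Genes without a point were not listed or not tested, and JUN and JUNB lie at 1.76 and 1.35 in NK92MI cells and near 0 in splenic NK cells.

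The other immediate early genes show whether the members moved with the group of genes that share their mode of induction. Of 29 such genes, 23 were tested in NK92MI cells, and 16 rose and 1 fell at an adjusted p under 0.05 by edgeR, with a median log2 fold change of 0.73. The share over all genes tested was 18.4% in each direction. TNFAIP3, which restrains NF-kB signalling, rose from 41.6, 39.8 and 41.9 CPM to 122, 125 and 123 CPM, a log2 fold change of 1.59 (adjusted p = 3.37e-09 by edgeR). PPP1R15A, the stress-induced phosphatase subunit GADD34, rose by 1.84 on the log2 scale (adjusted p = 2.26e-08 by edgeR). ZFP36L1, which promotes decay of mRNAs with AU-rich elements, rose by 1.04 and the survival gene MCL1 by 0.91. DUSP2, a phosphatase of MAP kinases, fell by 0.55 on the log2 scale (adjusted p = 0.0107 by edgeR). EGR1, IER2 and ZFP36, chosen after their values were seen as genes commonly induced together with FOS, had log2 fold changes of −0.09, 0.09 and 0.09 and did not pass. They do not stand for the list. Of the genes tested, 3 of 5 EGR and NR4A genes, 5 of 8 IER and other early factors and 8 of 10 feedback inhibitors rose.

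In splenic NK cells 28 of the 29 genes were tested, with a median log2 fold change of −0.06. Against 4.44% of all genes that rose and 7.43% that fell at an adjusted p under 0.05 by edgeR, 2 of them rose and 0 fell. These were Dusp2, with 225, 224 and 226 CPM in KO and 122, 162 and 141 CPM in WT NK cells (log2 fold change 0.67, adjusted p = 0.0275 by edgeR), and the nuclear receptor gene Nr4a2 (0.59, adjusted p = 0.0472 by edgeR). With the NK gene scaling both changed sign, to −0.08 and −0.18, and 0 genes of the list passed higher and 21 lower. Dusp2 was thus higher in KO NK cells with TMM, whereas DUSP2 was lower in NK92MI cells with BIX-01294. The 2 experiments differ in species, cell source and way of acting on EHMT2, and their difference was not tested. No mouse gene passed an adjusted p of 0.05 when KO replicate 2 or KO replicate 3 was left out, which holds for every mouse list here.

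The factors that bind the promoters of JUN and FOS were a list of 12 genes. In splenic NK cells 0 rose and 1 fell, with a median log2 fold change of 0.21. These counts are near the shares of all genes tested, of which 4.44% rose and 7.43% fell. The gene that fell was Mef2c, a factor at the JUN promoter (−0.61, adjusted p = 0.0431 by edgeR). Markers of other blood cells were also lower in KO NK cells, and the part of such cells in Mef2c was not tested. In NK92MI cells MEF2C was lower at a low level, with 1.22, 1.06 and 1.06 CPM against 1.69, 2.10 and 2.07 CPM (−0.81, adjusted p = 0.0392 by edgeR). In NK92MI cells 2 genes rose and 2 fell at an adjusted p under 0.05, with a median of 0.05. Both counts are near the background of 18.4% of all genes in each direction. CREM, a factor at cyclic AMP response elements, rose by 0.65 and ATF1, of the same family, by 0.33 on the log2 scale. SRF, which binds the CArG box, fell by 0.22 (adjusted p = 0.0159 by edgeR). Leaving out single human libraries left between 0 and 2 genes of this list lower.

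The MAP kinase cascade carries signals to the AP-1 proteins through its ERK, JNK and p38 branches. Of 26 genes, 1 rose and 1 fell in splenic NK cells, Araf by 0.36 and Map2k3 with −0.33, and the median log2 fold change was 0.02. These counts are not above the shares of all genes tested, of which 4.44% rose and 7.43% fell. All 7 genes of the p38 branch had a negative log2 fold change, and 1 of them passed. With the NK gene scaling Araf changed sign to −0.41. In NK92MI cells 5 rose and 8 fell at an adjusted p under 0.05 by edgeR, with a median of −0.10, against 18.4% of all genes in each direction. The share that rose is near that background. The widest difference among the 8 was that of MAP2K6, a kinase of p38, which went from 2.97, 3.51 and 3.25 CPM to 0.609, 0.470 and 0.649 CPM (log2 fold change −2.48, adjusted p = 2.17e-05 by edgeR). The other genes named by adjusted p moved less. HRAS rose by 0.45, MAP3K1 by 0.37, BRAF by 0.29 and MAPK8, the gene of JNK1, by 0.23, while MAPK8IP3 had −0.38, MAP2K2 −0.36 and RPS6KA1 −0.30. With 1 library left out, 2 to 6 genes were higher and 4 to 6 lower.

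Of 7 genes for the ubiquitin ligases that degrade JUN and FOS proteins, 0 passed in splenic NK cells in either direction, with a median log2 fold change of 0.02. In NK92MI cells 0 rose and 2 fell, CUL4A with −0.32 (adjusted p = 0.000794 by edgeR) and DDB1 with −0.33 (adjusted p = 0.00151 by edgeR), which are parts of one ligase complex. The median of the list was −0.07, and over all genes tested 18.4% rose and 18.4% fell. Of the NFAT genes, 0 of 4 passed in splenic NK cells (median 0.18). In NK92MI cells 1 of 3 passed, NFAT5, which does not need calcineurin, with 0.39 (adjusted p = 0.0311 by edgeR) and overlapping libraries, and it did not pass with DESeq2 or without any 1 library other than BIX replicate 3. The median of these 3 genes was −0.01.

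The genes with known AP-1 sites in their regulatory regions were a list of 23 cytokine, surface, effector and stress genes. In NK92MI cells 20 were tested, and 12 rose and 3 fell at an adjusted p under 0.05 by edgeR, with a median log2 fold change of 0.66. Over all genes tested the share was 18.4% in each direction, and the share of the list that fell is near it. IFNG, the gene of interferon gamma, rose from 31.1, 28.4 and 35.0 CPM to 259, 165 and 193 CPM, a log2 fold change of 2.71 (adjusted p = 1.90e-08 by edgeR). The adhesion gene ICAM1 rose by 1.93, the IL-2 receptor gene IL2RA by 0.89 and the adhesion receptor gene CD44 by 0.84 on the log2 scale. The 3 genes that fell were FASLG, the death receptor ligand, with −0.64, the integrin gene ITGAX with −0.36 and the cytokine gene TGFB1 with −0.20.

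In splenic NK cells 22 of these genes were tested, and 3 rose and 4 fell, with a median log2 fold change of 0.23. Over all genes tested, 4.44% rose and 7.43% fell. Csf2, which encodes GM-CSF, rose by 1.33 on the log2 scale (adjusted p = 0.0400 by edgeR), Ifng by 1.07 and the chemokine gene Ccl4 by 0.60. With the NK gene scaling the values were 0.60 for Csf2, 0.36 for Ifng and −0.15 for Ccl4, and 0 genes of the list passed higher and 9 lower. The genes that fell were Hmox1 with −2.54, Mt2 with −2.45, Nqo1 with −1.40 and Tgfb1 with −0.45. Hmox1, the heme oxygenase gene that is high in spleen macrophages, was counted at 283, 144 and 229 CPM in KO and at 2242, 407 and 1171 CPM in WT NK cells, in the order of the macrophage and monocyte marker sums, and the part of such cells was not tested.

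**Figure D5:**
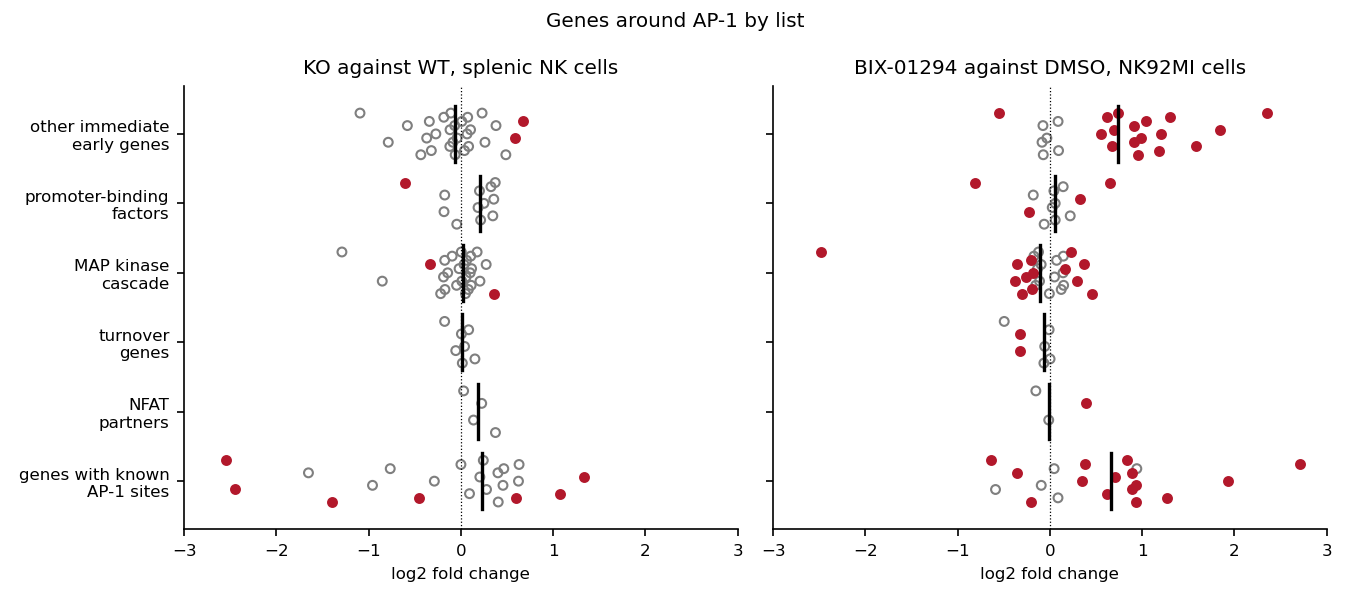
Log2 fold change (x axis) of each tested gene of 6 lists around AP-1, for KO against WT splenic NK cells and BIX-01294 against DMSO in NK92MI cells; filled points had an edgeR adjusted p under 0.05, and the black line is the median of the list. In NK92MI cells 16 of 23 other immediate early genes are filled on the right side, against 2 of 28 in splenic NK cells. Of all genes tested, 18.4% were higher at this threshold in NK92MI cells and 4.44% in splenic NK cells.

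The genes with the pattern most like that of a member over the 6 libraries of a species were sought by the root mean square distance of log2 CPM, each gene centred on its own mean. For JUN these were DHRS2 (0.05), PPP1R15A (0.08), ICAM1 (0.10), RGS1 (0.10) and the chemokine receptor gene CXCR4 (0.10). Among them CXCR4 was the most abundant, at a mean of 294 CPM with DMSO and 877 CPM with BIX-01294. For FOS they were GHRHR, ADCK1, THPO, PRKAR1B and LINC00863, with distances of 0.09 to 0.13 and mean levels of 0.859 to 13.7 CPM with DMSO, mostly genes of low counts. For Fos they were Msantd1, Rgag4, Cst3, Pla2g4f and Tlr11, at distances of 0.07 to 0.12. Of these, Cst3, the gene of the secreted protease inhibitor cystatin C, had the highest level, at a mean of 492 CPM in WT and 307 CPM in KO NK cells. For Jun they were Pop5, Dkkl1, Klk8, Ndufa7 and Lsm7, at 0.08 to 0.10. With 6 libraries in 2 groups, such distances describe these libraries only. They include the difference between the groups, by which the members were chosen. The genes nearest to JUN had log2 fold changes of 1.58 to 1.93, against 1.76 for JUN, so their nearness largely restates that difference.

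Some members share sequence with other genes on the opposite strand, and the strand setting of the counting is not given in the sources used here. In the annotation, 877 bases of the exons of Jund overlap Gm11175, 232 bases of Jun overlap Junos, 173 bases of Junb overlap Prdx2, and 259 bases of JUNB overlap HOOK2. If the counting ignored strand, reads from these stretches could not be assigned to one gene.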

How the data were processed

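Raw counts per gene symbol, deposited by the authors without normalization, were used. Per the labels and the paper's methods, reads were trimmed with fastp 0.23.4, aligned with STAR 2.7.11b (builds GRCm38 for mouse and GRCh38 for human) and counted with HTSeq 2.0.3. The release of the annotation is not given in the sources used here. All columns were used (0 left out). Each species was fitted separately in R 4.3.3 with edgeR 4.0.16 (TMM, filterByExpr, quasi-likelihood test, Benjamini-Hochberg adjustment over all genes tested). The same fit was run on simulated counts, drawn for each gene independently. Such counts hold no differences in cell content between libraries and do not bear on the differences between tools. Calls used an adjusted p under 0.01 with a |log2 fold change| over 0.5, or an adjusted p under 0.05 alone. Spread was computed on log2 CPM with a prior count of 2. Gene lengths are unions of exons in GENCODE annotation of the same builds, which may differ from the authors' release.

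The members, lists and tests were chosen with earlier results of these data known. All members and tested bZIP genes were named (1 gene of the bZIP list is not reported here), and of each other list up to 4 passing genes per direction by adjusted p. Exceptions are stated. Libraries were grouped by their titles. All replicate pairs differed by more than sampling noise. Alternatives were DESeq2's size factors, library totals, no filter or a minimum mean CPM of 1, DESeq2 1.42.0, limma-voom (limma 3.58.1), scaling to 12 NK genes, a replicate block and each library left out. Mouse promoters and protein sequences were not used here.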

Additional observations from a re-analysis of the deposited data

How the results depend on the processing

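For KO against WT, the count of genes under the stricter rule was 0 by edgeR, 34 with no filter, 1499 with DESeq2, 3 with limma-voom, 3172 with the NK gene scaling, and from 0 to 1163 with each library left out, the highest without WT replicate 2. At an adjusted p under 0.05 it was 1565, with 585 higher and 980 lower, against 3092 with DESeq2 and 8420 (41 higher and 8379 lower) with the NK gene scaling. Leaving out libraries gave 0 without KO replicate 2 or KO replicate 3, 14 without WT replicate 3, 99 without WT replicate 1 and 3530 without WT replicate 2. With the replicate block the counts were 819 and 3222. Deviations of same-numbered libraries from their group means correlated at 0.28, 0.35 and −0.19 for numbers 1, 2 and 3, so the numbers were not taken as pairing the mice. The human DMSO columns have no replicate number, and no block was fitted there. With the NK gene scaling the log2 fold changes were −0.72 for Jun, −0.72 for Junb, −0.29 for Jund, −0.31 for Fosb and −1.45 for Fos, with the sign of Jun, Junb, Jund and Fosb reversed, since this scaling moves the median of all genes to −0.76. For BIX-01294 against DMSO, both counts of genes stayed within 1.5 times their value under each alternative (1163 to 1578 and 3491 to 5021 with a library left out), and every member kept its direction. The cause of these differences was not tested. FOS and FOSB in NK92MI cells are limited by low counts.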
